A study of Mus musculus with 20 samples.

Results

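Spon1 encodes F-spondin, a secreted glycoprotein of the extracellular matrix, and it is 1 of 18193 genes that the array annotation ties to a probe set with a single symbol. It was taken up because it rose with 16alpha-LE2 in these same arrays, so its difference between 16alpha-LE2 and placebo is described here without a test. The annotation gives it 4 probe sets (gene ID 233744), and the one with the highest mean, 1451342_at, stands for the gene unless another is named. Expression was measured on 20 arrays of heart ventricle from female C57BL/6 mice. All mice were ovariectomized when 8 weeks old and carried an implanted minipump for 4 weeks. The 4 groups of 5 samples received 16alpha-LE2 (labelled as an agonist of estrogen receptor α), 17β-estradiol, which activates both classical estrogen receptors, placebo, or, in samples titled beta, a treatment that the labels call control solution. Title and treatment label of the last group do not match, so its samples are named by title and were not merged with placebo. No group with intact ovaries was analysed here, so all 4 groups share the loss of ovarian estrogen. The labels state no dose, so treatment time is matched between the agonists and dose is unknown.

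F-spondin was first found in the floor plate of the embryonic spinal cord, where it steers growing axons. Its C-terminal part is made of thrombospondin type 1 repeats, a fold it shares with the thrombospondins and with ADAMTS proteases. It binds the amyloid precursor protein and lipoprotein receptors that also bind reelin, and plasmin can cleave it from the matrix. In blood vessels the same protein was described as a growth factor for smooth muscle cells.

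One array stood apart from the rest. Its rank correlations with the other arrays (estradiol replicate 33) were 0.922 to 0.941, against 0.978 to 0.992 among the other 19, and its median level was 7.02, against 6.89 to 6.98. Results that rest on it are given with and without it. Defining markers of heart muscle were high on all arrays, with a mean level of Myh6, Tnnt2, Tnni3, Actc1, Ryr2 and Pln from 13.73 to 14.11 on the log2 scale. The labels do not state that each sample came from its own animal, so errors and p-values measure the spread between these samples.

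Spon1 was highest in the 16alpha-LE2 group, followed by estradiol, placebo and the beta-titled group. With 16alpha-LE2 the log2 levels of replicates 29, 30, 32, 33 and 34 were 9.20, 9.33, 9.32, 9.27 and 8.98. With placebo the levels of replicates 31, 32, 33, 34 and 36 were 8.78, 8.86, 8.62, 8.50 and 8.56. All 5 samples of 16alpha-LE2 lay above all 5 of placebo, and the lowest of them, replicate 34, came nearest. Of all genes tested, 0.579% were higher with 16alpha-LE2 without overlap, and since the gene was chosen on this contrast nothing is read from that share.

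With estradiol the levels of replicates 29, 30, 33, 34 and 35 were 8.91, 8.88, 8.37, 8.88 and 9.08. Of these samples 4 were above the highest placebo sample, while replicate 33 was the lowest of all 20 arrays. In the beta-titled group replicates 31, 32, 33, 35 and 36 stood at 8.51, 8.41, 8.40, 8.71 and 8.39. Here 4 samples were close together and replicate 35 was higher, within the range of placebo.

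**Figure D1:**
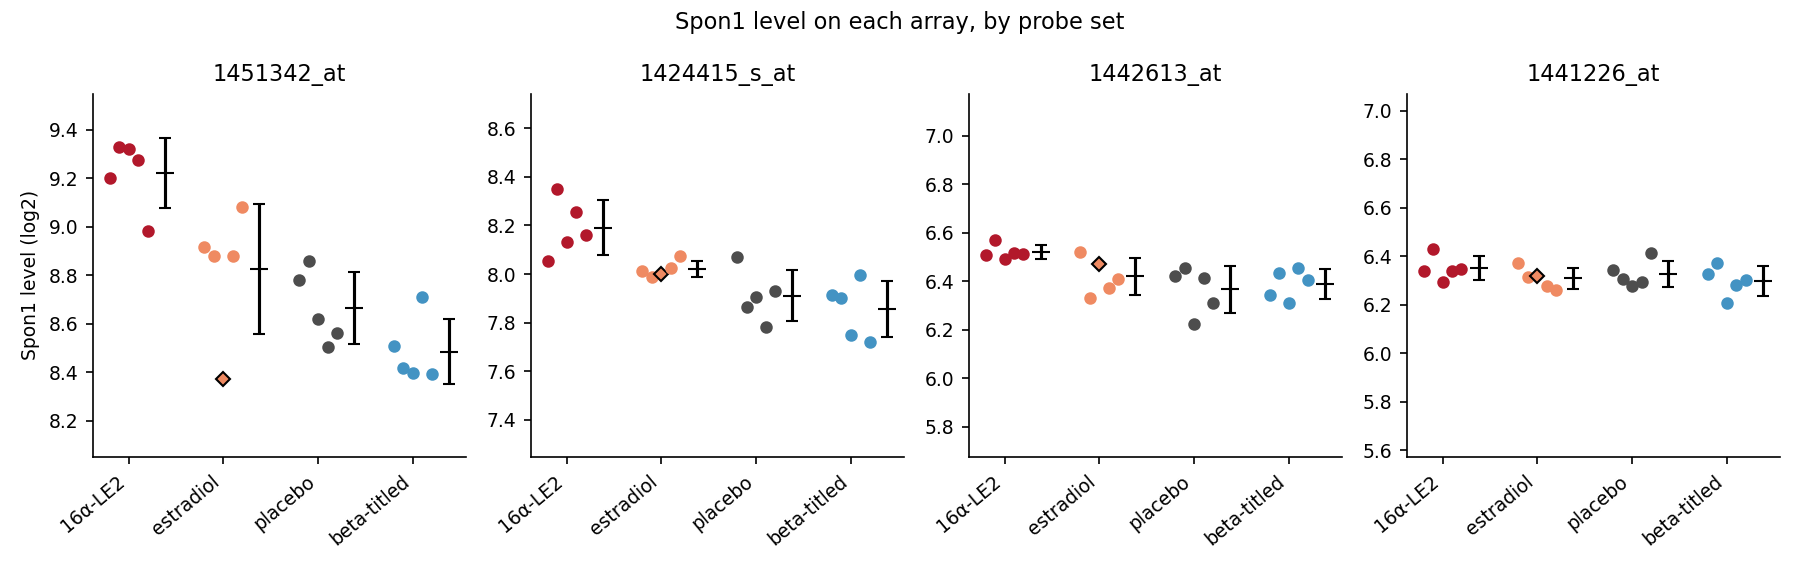
Log2 level of Spon1 on each array, 1 panel for each probe set, with samples as points in order of replicate number and the group mean ± SD beside them (n = 5). Each vertical axis spans the same number of log2 units around the mean of its probe set, and the diamond is estradiol replicate 33, which is low for 1451342_at (8.37) and not for 1424415_s_at (8.00).

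Group means were 9.22 ± 0.14 with 16alpha-LE2, 8.82 ± 0.27 with estradiol, 8.66 ± 0.15 with placebo and 8.48 ± 0.13 in the beta-titled group (SD, n = 5 each). Without replicate 33 the estradiol mean was 8.94 ± 0.10. Spon1 was 1.47-fold above placebo with 16alpha-LE2, a log2 difference of 0.56 ± 0.11 (SE) with a 95% interval from 0.32 to 0.79. In that contrast 0.223% of the 12082 genes tested passed an adjusted limma p of 0.05, and 0.0248% passed and were higher.

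Neighbours in this order were less clearly apart. Estradiol was 0.16 ± 0.11 log2 units (SE) above placebo, with an interval from −0.07 to 0.39. It was 0.27 without estradiol replicate 33, with an interval from 0.08 to 0.47, and 0.097 without estradiol replicate 35. The beta-titled group was lower than placebo by a difference of −0.18, with an interval from −0.41 to 0.05. On all 20 arrays both of these intervals include 0. The comparisons with placebo share the placebo arrays, on which the gene was in part chosen, and have no test for that reason.

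The agonists can be set side by side at the same treatment time. Spon1 was 1.32-fold higher with 16alpha-LE2 than with estradiol, a log2 difference of 0.40 with an interval from 0.16 to 0.63. The groups overlapped, since 4 of 5 samples of 16alpha-LE2 lay above the highest estradiol sample and replicate 34 lay below it. The difference was 0.28 when estradiol replicate 33 was left out, with an interval from 0.09 to 0.47. Against the beta-titled group Spon1 was 1.67-fold higher with 16alpha-LE2, without overlap. Of all genes tested, 0.0166% passed limma between 16alpha-LE2 and estradiol and 0.174% between 16alpha-LE2 and the beta-titled group. Both differences use the 16alpha-LE2 arrays on which the gene was chosen, so they are descriptions as well.

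Estradiol against the beta-titled group is the pair that shares no array with that contrast, and it was tested. Spon1 was 1.27-fold higher with estradiol, a log2 difference of 0.34 ± 0.11 (SE). Of the 5 estradiol samples, 4 lay above every beta-titled sample. Adjusted for all genes tested, this missed the threshold (limma adjusted p = 0.925). In this contrast 0 genes passed limma, 0% of those tested, while 463, or 3.83%, had an unadjusted p under 0.05, Spon1 among them. With estradiol replicate 33 left out the difference was 0.45 ± 0.09, the gene ranked 3 of 12082 by limma p, and it still did not pass (limma adjusted p = 0.324). Over all alternatives run, the limma adjusted p was between 0.324 and 0.999.

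**Figure D2:**
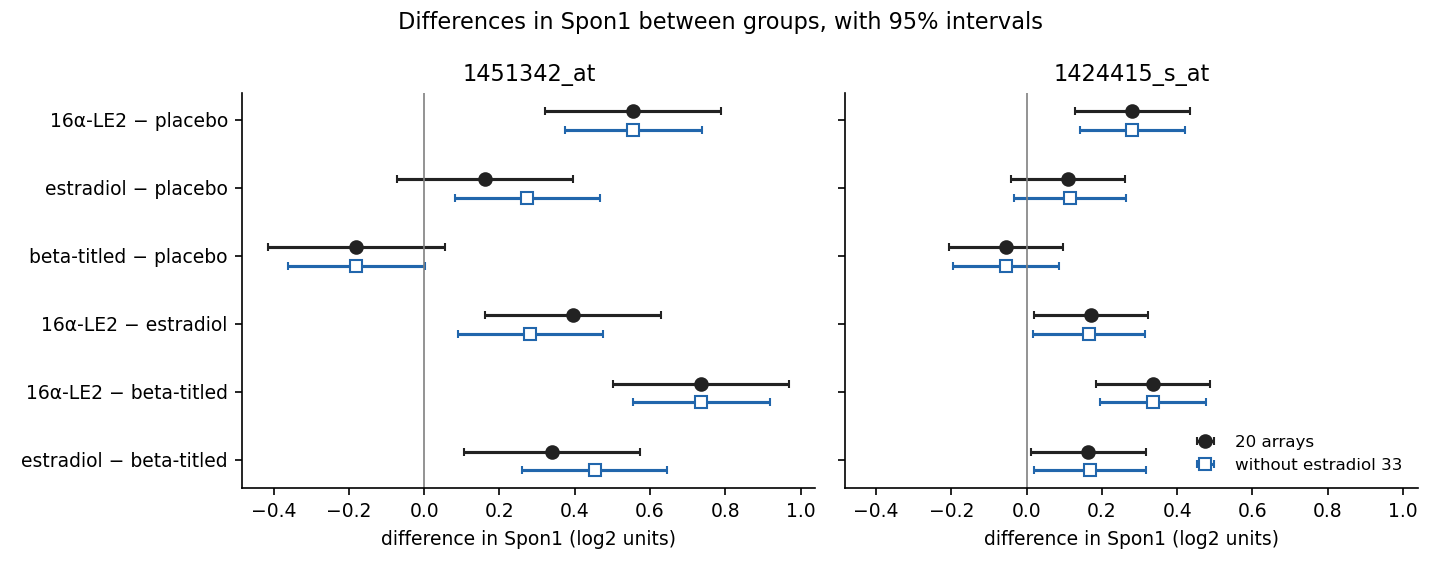
Difference in Spon1 between each pair of groups, with 95% confidence intervals from the fit over all groups, for the 2 brightest probe sets. Filled points use 20 arrays and open squares leave out estradiol replicate 33, and for 16alpha-LE2 minus placebo the points lie at 0.56 and 0.28. All pairs with 16alpha-LE2 or placebo are a description, since Spon1 was chosen on those arrays.

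The second probe set, 1424415_s_at, showed the same order of group means with smaller differences. Its levels with 16alpha-LE2 were 8.06, 8.35, 8.13, 8.26 and 8.16 in replicates 29, 30, 32, 33 and 34. With placebo they were 8.07, 7.86, 7.90, 7.78 and 7.93 in replicates 31, 32, 33, 34 and 36, so that 4 of 5 samples of 16alpha-LE2 lay above all of placebo and replicate 29 did not. The difference was 0.28 ± 0.07 log2 units (SE), with an interval from 0.13 to 0.43. The estradiol samples were close together here, from 7.99 to 8.07, and replicate 33 lay among them at 8.00. The low Spon1 value of that array was seen with 1451342_at and not with 1424415_s_at, although the annotation ties both to the same transcript record.

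The other probe sets, 1442613_at and 1441226_at, had means of 6.42 and 6.32, below the level of 6.93 that a probe set had to exceed to be tested. For 1442613_at all 5 samples of 16alpha-LE2, from 6.49 to 6.57, lay above all placebo samples, from 6.22 to 6.46, with a difference of 0.15 log2 units. For 1441226_at the difference was 0.02 with an interval from −0.07 to 0.11. Within groups, deviations of 1424415_s_at from its group means followed those of 1451342_at with Pearson's r = 0.43 and Spearman's rho = 0.46 over 20 arrays (permutation p = 0.0292 and 0.0511, two-sided, adjusted over 3 probe sets 0.0876 and 0.153). Without the 2 arrays farthest from the median, estradiol 33 and 16alpha-LE2 34, r was 0.59. For 1442613_at and 1441226_at r was 0.12 and −0.09.

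Most relatives of Spon1 with thrombospondin type 1 repeats did not pass the test with 16alpha-LE2. Of 55 listed genes on the array, 33 passed the expression filter, and 0 of these rose and 1 fell against placebo. The lower calls amounted to 0.199% of all genes tested. The median difference of the 33 genes was 0.06 log2 units, against −0.03 over all genes tested, with 22 genes above and 11 below placebo. An unadjusted limma p under 0.05 was reached by 3 of the 33, against 9.01% of all genes.

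The gene that fell was Adamts9, a secreted protease that cuts matrix proteoglycans. Its levels with 16alpha-LE2 were 7.70, 7.74, 7.68, 7.92 and 7.64 in replicates 29, 30, 32, 33 and 34. With placebo they were 8.27, 8.32, 8.38, 8.37 and 8.04 in replicates 31, 32, 33, 34 and 36. The groups did not overlap, as for 2.7% of all genes that were lower without overlap, and placebo replicate 36 was the sample nearest to the treated ones. With 16alpha-LE2 Adamts9 fell by 0.54 ± 0.10 log2 units (SE) at a limma adjusted p of 0.0143. With the mean of its probe sets in place of the brightest one the difference was −0.28 and the call was lost (limma adjusted p = 0.102). For the brightest one, the estradiol difference from placebo was −0.39 ± 0.10 and that of 16alpha-LE2 from estradiol was −0.15 ± 0.10 (limma adjusted p = 0.499 and 0.875). Neither of these passed, and the fall is not shown to be particular to 16alpha-LE2.

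Among the relatives that did not pass, the largest differences were those of Adamts5, an aggrecan-cutting protease (−0.45 ± 0.19 SE), Adamtsl4, a fibrillin-binding protein (0.23 ± 0.11), and Sema5a, a semaphorin of axon guidance (0.20 ± 0.12). Spon2 and the trimeric thrombospondins are named for their kinship and not by size. Spon2, the other spondin, had a difference of 0.11 ± 0.09 with 16alpha-LE2 and 0.22 ± 0.09 with estradiol, and neither passed. Thbs1 and Thbs2 had differences of −0.03 ± 0.11 and −0.03 ± 0.15 with 16alpha-LE2. With estradiol 0 of the 33 genes passed limma against placebo and 4 had an unadjusted p under 0.05, where 0% and 9.63% of all genes did. Against the beta-titled group 0 passed as well, with 6 at an unadjusted p under 0.05, against 3.83% of all genes. Between the beta-titled group and placebo 0 passed limma, and 1 of the 33 had an unadjusted p under 0.05, against 5.7% of all genes. Between 16alpha-LE2 and estradiol these counts were 0 and 4, against 5.19% of all genes, and between 16alpha-LE2 and the beta-titled group they were 0 and 9, against 5.6%. In the last comparison 1 passed with estradiol replicate 33 left out.

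Proteins that bind F-spondin or act in the same pathway were represented by 8 tested genes of 12 on the array. With 16alpha-LE2, with estradiol against placebo, and with estradiol against the beta-titled group, 0 of the 8 passed limma, and 2, 0 and 0 had an unadjusted p under 0.05. Over all genes the shares that passed were 0.223%, 0% and 0%, and 9.01%, 9.63% and 3.83% had an unadjusted p under 0.05. Reln, which encodes reelin, had the largest upward difference with 16alpha-LE2, 0.26 ± 0.11 log2 units (SE; limma adjusted p = 0.493). App, the amyloid precursor protein, and Aplp2, a protein of the same family, had differences of −0.22 ± 0.10 and −0.20 ± 0.11, while Aplp1 stood at 0.00 ± 0.05. The receptors Vldlr and Lrp2 had differences of −0.01 ± 0.10 and 0.03 ± 0.13. Apbb1, an adaptor that binds the tail of the amyloid precursor protein, and Tgfb1, a growth factor stored in the matrix, had differences of 0.04 ± 0.14 and 0.01 ± 0.10. None of these values passed. The median over the 8 genes was 0.00 log2 units, against −0.03 over all genes.

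**Figure D3:**
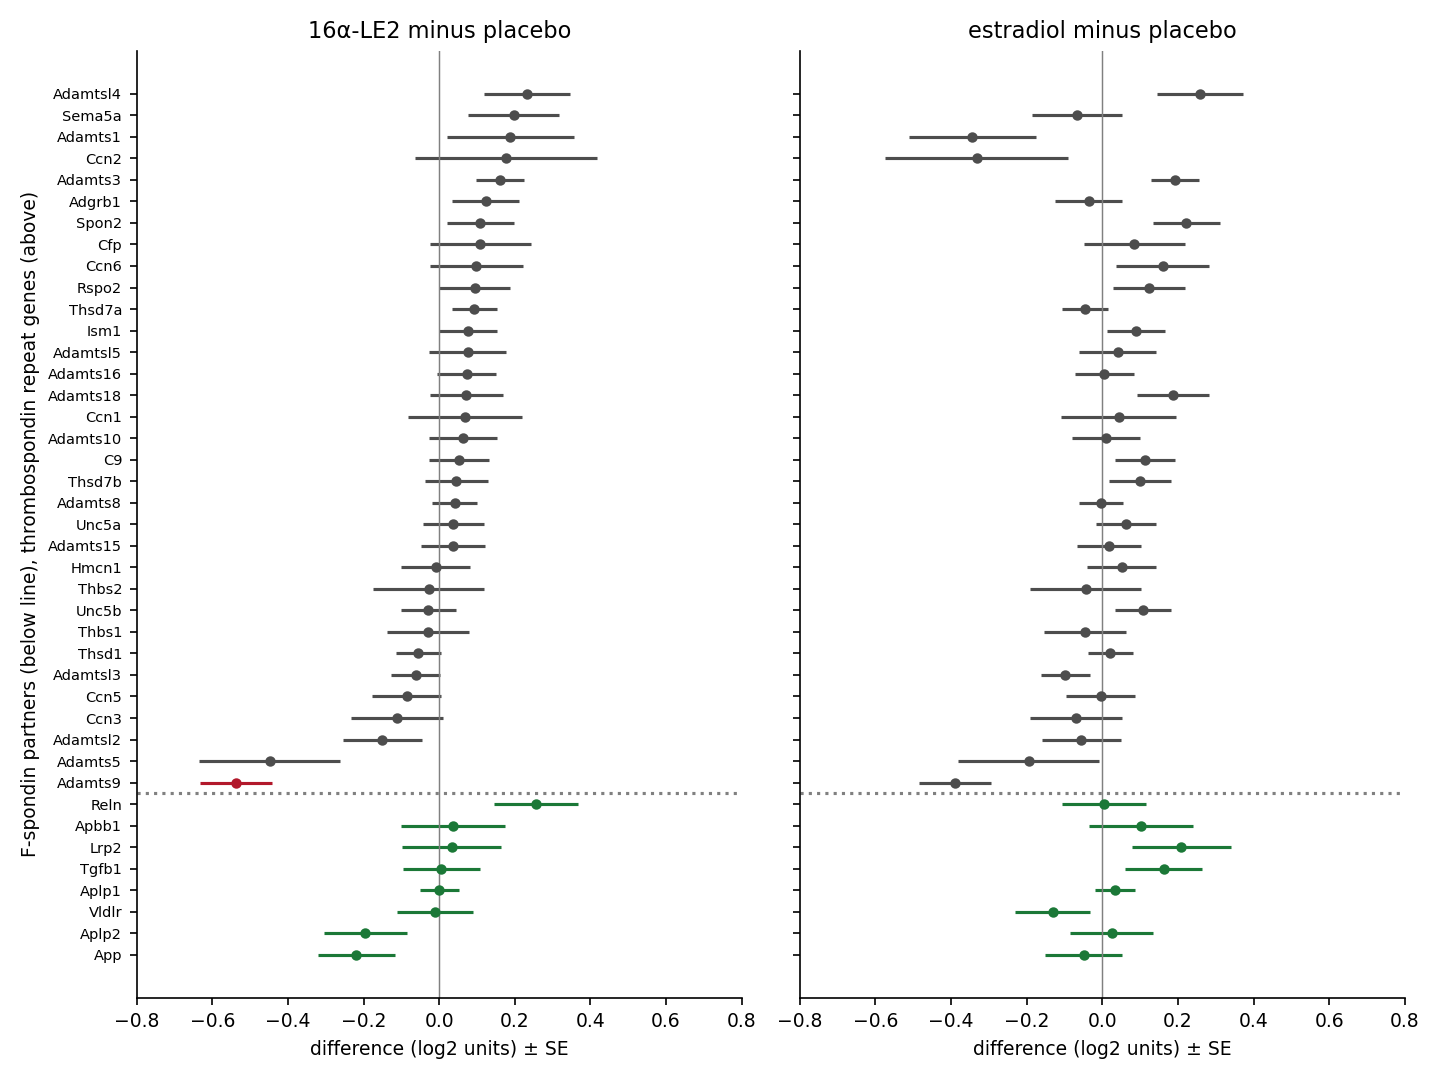
Difference from placebo in log2 units ± SE for 33 thrombospondin repeat genes (above the dotted line) and 8 F-spondin partners (below it), with 16alpha-LE2 on the left and estradiol on the right. The gene drawn in red, Adamts9 with 16alpha-LE2, is the 1 value that passed an adjusted limma p of 0.05, and both panels share the placebo arrays.

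Beside the higher Spon1 level with 16alpha-LE2, summed markers of fibroblasts, endothelium and pericytes were lower and those of red blood cells higher. The mean level of 7 fibroblast markers (Pdgfra, Col1a1, Col1a2, Dcn, Lum, Tcf21 and Ddr2) ran from 9.36 to 9.55 with 16alpha-LE2 and from 9.50 to 9.94 with placebo. That of 5 endothelial markers ran from 8.82 to 9.26 against 9.16 to 9.52, and that of 4 pericyte markers from 10.80 to 11.00 against 10.99 to 11.31. These groups overlapped slightly, and the mean differences were −0.30, −0.27 and −0.28 log2 units. The 4 red blood cell markers on the array ran from 8.28 to 9.28 against 7.97 to 8.37, a mean difference of 0.52. The value of 9.28 was that of 16alpha-LE2 replicate 33, and the other samples of this group ran from 8.28 to 8.60. The 5 smooth muscle markers, from 8.46 to 8.90 against 8.65 to 8.72, and the 4 atrial markers, from 8.48 to 10.66 against 9.22 to 10.34, had mean differences of −0.02 and 0.12. Those of 6 heart muscle and 5 macrophage markers were −0.03 and 0.01. Of all markers tested, 1 passed limma, Slc4a1 of red blood cells, the anion exchanger of their membrane. Over all genes tested the share that passed in this contrast was 0.223%. All 4 mesothelial markers (Msln, Upk3b, Wt1 and Krt19) and the 1 Schwann cell marker on the array (S100b) lay below the expression filter, with mean differences of 0.01 for each list, and of the 2 adipocyte markers 1 lay above it, with a mean difference of −0.17 for the list. The part of these shifts in the Spon1 difference was not tested. In tissue RNA, fewer cells of a type and less RNA per cell cannot be told apart.

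Within groups the sign was the other way for fibroblast markers, and Pearson's r did not pass after adjustment. Over 20 arrays, the deviation of Spon1 from its group mean and that of the fibroblast mean had r = 0.55 and rho = 0.68 (permutation p = 0.00592 for r, adjusted over 11 marker lists 0.0651). The rho was not tested. Without the 2 farthest arrays r was 0.58, and without estradiol replicate 33 alone it was 0.62. For pericyte markers r was 0.57 and rho 0.49 (permutation p = 0.0383 for r, adjusted 0.211). Their r was 0.24 without the 2 farthest arrays and 0.30 without estradiol replicate 33 alone. The spread of values on an array (SD) had r = 0.35 and rho = 0.27 with Spon1 (permutation p = 0.157 and 0.272), and r = 0.09 without the 2 farthest arrays. This SD did not set estradiol replicate 33 apart (1.34, with 1.29 to 1.48 over all arrays), so a relation of Spon1 to array quality was not tested by it.

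The genes most like Spon1, taken as its brightest probe set, were sought by the correlation of deviations from group means over all 20 arrays. Such deviations leave out the differences between groups. The 6 highest were Nrtn, a ligand of the GDNF family (r = 0.86, rho = 0.74), Eprn, a long noncoding RNA (0.85, 0.82), Srpx2, a secreted sushi-repeat protein (0.84, 0.78), Sema3f, a secreted semaphorin (0.84, 0.75), Rhbdd2 (0.83, 0.68), and Trem2, a receptor of myeloid cells (0.83, 0.70). The 6 lowest were Trps1, a zinc finger repressor (r = −0.84, rho = −0.69), Actl6a, a chromatin remodelling subunit (−0.84, −0.73), Oprm1, the μ opioid receptor (−0.84, −0.69), Edrf1 (−0.82, −0.73), Krt35, a hair keratin (−0.82, −0.62), and Slc9b1 (−0.81, −0.69). Trem2 and Krt35 had mean levels of 7.04 and 7.06, close to the filter level of 6.93. Those of Srpx2, Eprn and Rhbdd2 were 7.24, 7.30 and 7.34, and the rest of the 12 genes ran from 7.79 to 9.86. With the Spon1 level as a covariate, 1637 of 12081 other genes passed an adjusted limma p of 0.05, a share of 13.6%, of which 441 rose and 1196 fell with Spon1. These 12 genes were among them, each with a limma adjusted p of 0.0163. They were picked for their r on these arrays, so their r values are a description.

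That count rested on 1 array, estradiol replicate 33. When it was left out, 0 genes passed limma, 0% of those tested, while 402, or 3.33%, had an unadjusted p under 0.05, against 29.8% with it. The smallest adjusted p was then 0.257, that of Thbs2. From the 5th to the 95th percentile, r over all genes ran from −0.68 to 0.60 with this array and from −0.37 to 0.41 without it. The middle of the distribution moved too, from a median r of 0.23 to 0.02. The 12 genes named above kept their sign, with r from 0.65 to 0.75 for the 6 highest and from −0.65 to −0.61 for the 6 lowest.

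Thbs2, which was in the list of relatives, followed the brightest Spon1 probe set closely in both settings. Whether it follows 1424415_s_at was not tested, and within groups that probe set had r = 0.43 with the brightest one over 20 arrays. With the mean of all 4 Spon1 probe sets, 0 genes passed limma. With the brightest one, this thrombospondin had r = 0.81 and rho = 0.87 over 20 arrays (limma adjusted p = 0.0163 over all genes). On the 19 arrays without estradiol replicate 33 it had r = 0.84 and rho = 0.74 and ranked first of 12081 genes, and without the 2 farthest arrays r was 0.87. It was called in the fit with 20 arrays, where 13.6% of genes were, and not in that with 19 (limma adjusted p = 0.257). Its levels show the pattern. With 16alpha-LE2 they were 8.79, 9.07, 9.38, 9.09 and 8.85 in replicates 29, 30, 32, 33 and 34, and with placebo they were 9.29, 9.44, 8.85, 8.66 and 9.07 in replicates 31, 32, 33, 34 and 36. Placebo replicates 31 and 32 were the highest of their group for both genes and replicate 34 was the lowest for both, while the Thbs2 ranges of the groups overlapped throughout.

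**Figure D4:**
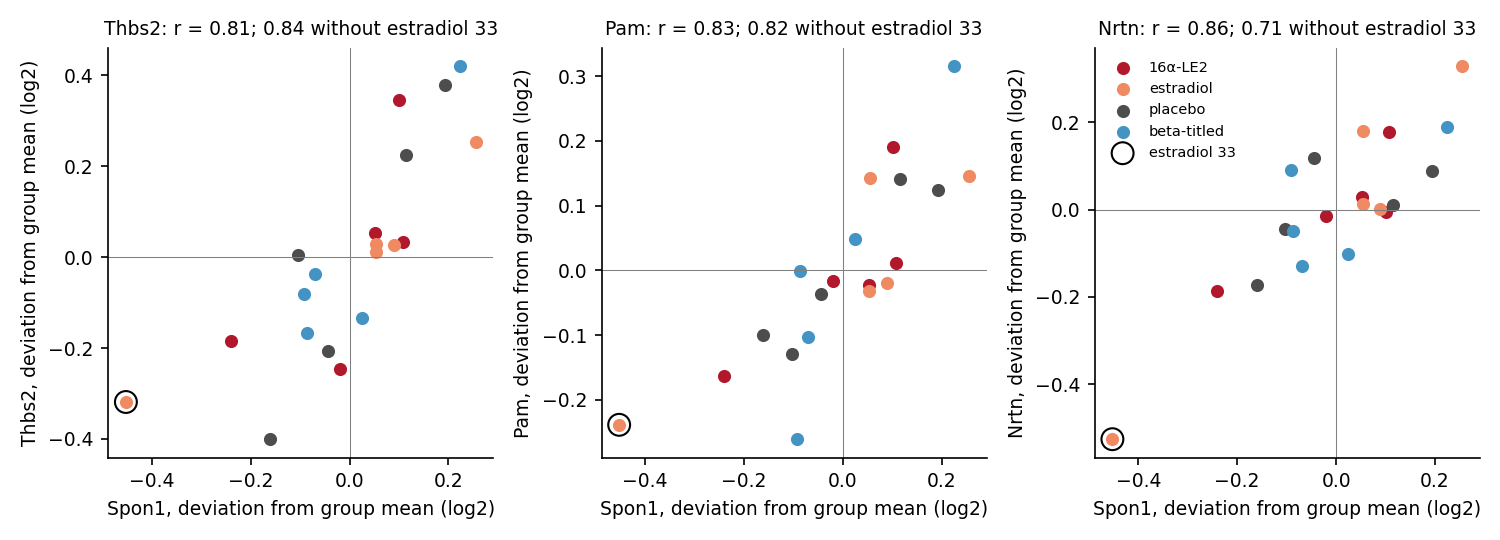
Deviation from the group mean (log2) of Thbs2, Pam and Nrtn against that of Spon1 on 20 arrays, coloured by group, with estradiol replicate 33 circled. For Thbs2 and Pam r without that array was 0.84 and 0.82, and for Nrtn r goes from 0.86 to 0.71.

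Pam, which encodes an enzyme that amidates secreted peptides, came next without estradiol replicate 33, with r = 0.82 and rho = 0.86, and it had r = 0.83 with it. Fbln5, a protein of elastic fibres, followed with r = 0.78 (0.76 with it) and Igfbp4, a binding protein of insulin-like growth factors, with 0.77 (0.67 with it). These 3 genes were singled out after their values were seen. None of them passed without that array (limma adjusted p = 0.9996, 0.9996 and 0.541). Between 16alpha-LE2 and placebo, Thbs2, Pam, Fbln5 and Igfbp4 had differences of −0.03 ± 0.15, −0.04 ± 0.11, 0.18 ± 0.12 and −0.07 ± 0.21 log2 units (SE), and none passed (limma adjusted p from 0.704 to 0.984). These 4 genes had the highest r with Spon1 inside the groups when estradiol replicate 33 was left out, and none passed limma there. They were not called between the groups on which Spon1 was chosen.

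Of the 33 relatives, 3 rose and 4 fell with Spon1 over 20 arrays, against 13.6% of all genes called, and 13 had an unadjusted p under 0.05, against 29.8% of all genes. Those that rose were Thbs2, Adamtsl2 (r = 0.71) and Adgrb1 (0.66), and those that fell were Ccn6 (−0.79), C9 (−0.75), Adamts18 (−0.71) and Rspo2 (−0.70). Of the 8 partners, Lrp2 (−0.77) and Tgfb1 (−0.72) fell with Spon1. The mean levels of these 9 genes ran from 7.02 for Adgrb1 to 9.02 for Thbs2. Those of Adamts18, Lrp2 and C9 were 7.07, 7.15 and 7.16, so that with Adgrb1 they lay close to the filter level of 6.93. By permutation within groups, the unadjusted p for r of these 9 genes was 6e-05 for Thbs2, 0.0601 for Adgrb1 and from 0.00348 to 0.0413 for the other 7. Adjusted over the 63 genes with such a permutation p, it was above 0.05 for Adamtsl2, Adgrb1, Adamts18, Rspo2 and Tgfb1 (from 0.0523 to 0.118). The 63 genes include those picked for the highest or lowest r on these arrays, which can lower the adjusted p of the rest. For Thbs2, Ccn6, C9 and Lrp2 no pass is therefore read from this adjustment. On the 19 arrays without estradiol replicate 33, 0 of the 41 genes of both lists passed. There r was 0.84 for Thbs2, 0.35 for Adamtsl2 and 0.14 for Adgrb1. It was −0.54 for Ccn6, −0.44 for C9, −0.25 for Adamts18, −0.22 for Rspo2, −0.45 for Lrp2 and −0.30 for Tgfb1.

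**Figure D5:**
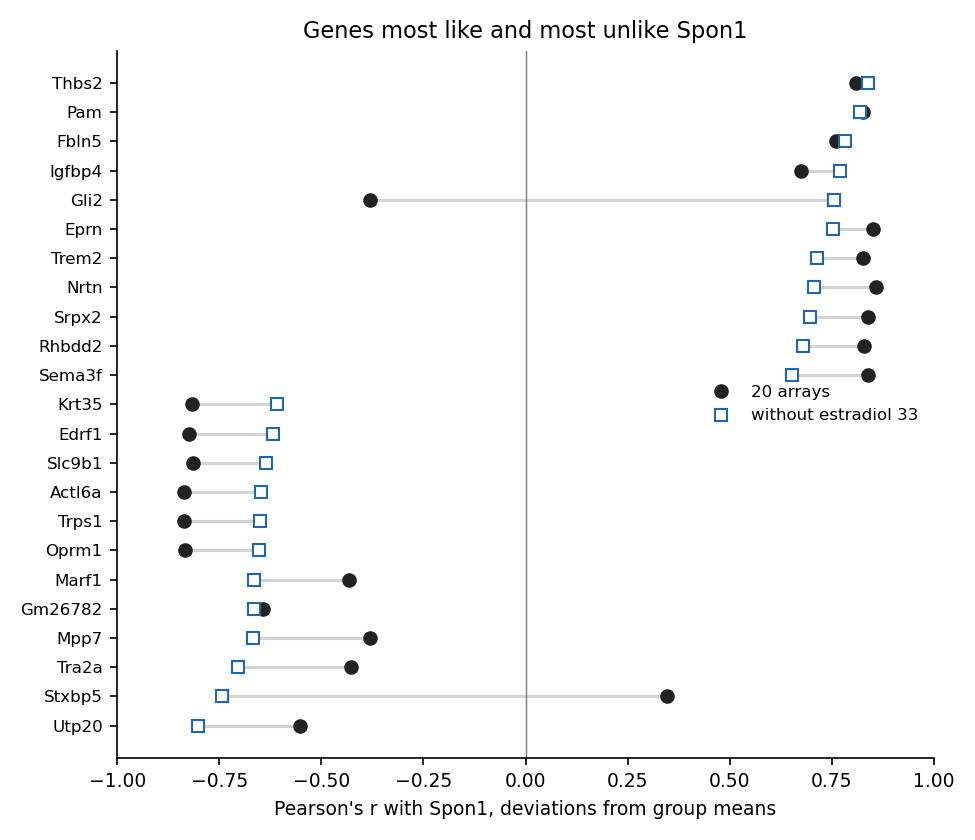
Pearson's r with Spon1 of deviations from group means, for the 6 highest and 6 lowest genes on 20 arrays and the 6 highest and 6 lowest on 19. Filled points use 20 arrays and open squares leave out estradiol replicate 33, and 2 genes, Gli2 and Stxbp5, change sign.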

How the data were processed

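Total RNA of 20 ventricle samples was labelled with biotin for Affymetrix arrays, per the labels. The deposited values were read as log2 from their range (5.07 to 15.31 after controls were removed). For the authors' summarization and normalization, the method is not given in the sources used here. The number of arrays limits precision. Of 45101 probe sets, 64 were controls and left out, 34945 had 1 symbol, 932 several and 9160 none. Probe sets with a mean above 6.93, the median of all, were kept, and the brightest stood for a gene, which left 12082 genes. Gene names follow the platform annotation, checked by gene ID in a RefSeq table of assembly GRCm38.p6, in which 34741 probe sets' IDs were found and 0 symbols differed. No sequence of Spon1 was used.

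The main model, of group means over all 20 arrays, used limma 3.58.1 (lmFit, eBayes with trend) under R 4.3.3, with Benjamini-Hochberg adjustment over all genes and a threshold of 0.05. A second fit added the Spon1 level as a covariate. Correlations used deviations from group means and 100000 two-sided permutations within groups. The code was tested on simulated data. The members and lists were chosen with earlier results of these data known. Named genes were Spon1, the 6 highest and 6 lowest by r, called list members, the 4 relatives with the largest 16alpha-LE2 difference, and all tested partners. Alternatives covered probe sets, filter, scaling, array weights, the replicate number as a block, the groups fitted, and each array left out.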

Additional observations from a re-analysis of the deposited data

Results flagged for a closer look

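In groups of 5 samples, a sample was marked when its gap to the nearest other exceeded 0.71 of the group's range (Dixon's test at the 95% level), over 44 groups of values from Spon1 and 7 other genes shown here. Chance marks about 1 in 20 such groups, and 3 were marked. Spon1 (1451342_at) was 8.37 in estradiol replicate 33, against 8.88 to 9.08 in the other estradiol samples. Thbs2 was 9.38 in beta-titled replicate 35, against 8.79 to 8.92 in the other 4 samples, and that sample was also the highest of its group for Spon1. Adamts9 was 7.91 in beta-titled replicate 36, against 8.18 to 8.25.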

How the results depend on the processing

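Spon1 stayed higher with 16alpha-LE2 than with placebo, estradiol and the beta-titled group in all 29 alternatives run for each. The gene was chosen for its rise on these arrays, so this is a description. Most of the alternatives left out 1 array, which cannot turn the sign where groups do not overlap. The differences (0.56, 0.40 and 0.74) were 0.25, 0.18 and 0.31 with the mean of all 4 probe sets, 0.28, 0.17 and 0.34 with 1424415_s_at, 0.15, 0.10 and 0.13 with 1442613_at, and 0.0223, 0.0413 and 0.0522 with 1441226_at. The beta-titled difference from placebo turned from −0.18 to 0.0229 with 1442613_at, and the estradiol difference from placebo from 0.16 to −0.01895 with 1441226_at. Leaving out 1 array gave 0.52 to 0.62 against placebo. The count of genes that followed Spon1 (1637) was 0 with the mean of its 4 probe sets, 0 after quantile normalization, 2 with array weights, 2908 without the filter, 3297 after median centring, and 0 to 1825 over single arrays left out. The relatives that followed it (7) came to 0 after quantile normalization, 11 after median centring, 1 with array weights, and 0 to 7 over single arrays. The partners (2) came to 1 with the mean of probe sets, 4 without the filter, 0 after quantile normalization, 0 with array weights, and 0 to 3 over single arrays. Beyond the larger number of genes tested without the filter, the cause was not tested. The relatives called with 16alpha-LE2 (1) came to 0 with the mean of probe sets and 2 with array weights.

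With the replicate number as a block, 2 relatives were called with 16alpha-LE2, 1940 genes followed Spon1, and the Spon1 difference from placebo was 0.52 for 16alpha-LE2 and 0.085 for estradiol. The numbers are not known to pair samples: of 17 same-numbered pairs across groups, 6 correlated above 0.1 (median −0.02), and 3 of 20 arrays correlated best with their own number. The block changed no other count by more than 1.5 times, and Thbs2, Pam and Trem2 were not called with it (limma adjusted p = 0.0598, 0.249 and 0.0515). Each of the 14 genes followed singly was called in 22 or 23 of 26 alternatives, and none changed sign. Most of these alternatives left out a single other array and kept estradiol replicate 33, so the tally was largely set by the main fit. None of the 14 was called without that array or after quantile normalization (limma adjusted p from 0.0698 to 0.145 in the latter). With array weights only Thbs2 was called (limma adjusted p = 0.0392).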

Other observations

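With estradiol replicate 33 left out, the genes that ran most clearly against Spon1 within groups were others than with it, and they were picked after their values were seen. Utp20, a factor of ribosomal RNA processing, had r = −0.80, Stxbp5, a syntaxin-binding protein, had −0.74, and Tra2a, a splicing regulator, had −0.71. Mpp7, a membrane scaffold protein, Gm26782 and Marf1 each had −0.67. None of these 6 passed limma (adjusted p = 0.9996 for each), and Stxbp5 had r = 0.35 when that array was kept. Gli2, a transcription factor of hedgehog signalling, had r = 0.76 without the array and −0.38 with it.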
